A study of Mus musculus with 4 samples.

Results

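The clustered protocadherins are described here by their place in the TADs of 2D- and 3D-cultured hepatocytes. The members were all protein-coding genes on chromosome 18 whose symbol begins with Pcdha, Pcdhb or Pcdhg in GENCODE release M21 of GRCm38. This gave 57 genes of the 21755 protein-coding genes on chromosomes 1 to 19 and X, namely 14 in the α cluster, 22 in the β cluster and 21 in the γ cluster. The selection used the symbols only and no TAD. *Pcdhgb8* was left out because the annotation lists it as a polymorphic pseudogene. The symbol *Pcdha11* is carried by 2 neighbouring genes of the annotation, ENSMUSG00000007440.10 and ENSMUSG00000102206.5, and RefSeq gives a gene named *Pcdha10* at the place of the first.

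TADs were called from in situ Hi-C of AML12 cells, an immortal hepatocyte line from mice that carry a TGFα transgene, with 2 replicates for each culture and 4 samples in all. The 2D cultures were grown on dishes and exposed to 1 mM hydroxyurea for 24 h. The 3D cultures were grown embedded in Matrigel and exposed to 1 mM hydroxyurea for 36 h. Hydroxyurea blocks DNA replication and holds cells at the boundary of G1 and S, so both groups are arrested cells and differ in the time of exposure as well as in the culture. In situ Hi-C ligates DNA ends that lie close together in fixed nuclei after digestion with MboI, and a TAD is a stretch whose bins contact each other more than they contact the neighbouring stretches.

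The authors pooled the replicates ahead of TAD calling, which leaves 1 list for each culture and no replicate error. Differences between the lists are therefore given without a test. The lists held 4467 TADs in 2D and 4355 in 3D, on a grid of 40 kb bins and with no read counts, so the depth behind any single border is unknown. Any position at which a TAD starts or ends counts as a border, and it cannot be placed more finely than 1 bin. The lists carry no expression values, so they show neither whether these cells transcribe any protocadherin nor whether they keep hepatocyte markers.

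Protocadherins of the 3 clusters are cell adhesion proteins of the cadherin superfamily, known above all from neurons. Each neuron expresses its own combination of them, and the combination gives its surface an identity through which branches of the same cell recognise and avoid each other. In the α and γ clusters a row of variable first exons, each with a promoter of its own, is spliced to a shared set of constant exons at the end of the cluster, whereas the β genes are each complete in themselves. Promoter choice is known to involve CTCF and cohesin, which bring a promoter together with enhancers that lie between the α and β clusters and beyond the γ cluster. The C-type genes *Pcdhac1*, *Pcdhac2*, *Pcdhgc3*, *Pcdhgc4* and *Pcdhgc5* stand last in their clusters, and several of them are known to be expressed more evenly across neurons than the others.

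In both cultures 1 TAD held the α cluster, the β cluster and most of the γ cluster. It extended over chr18:36800001-37800000 (mm10) in 2D and over the same 1000 kb in 3D, so its ends were identical in the lists. Of the 57 gene starts, 54 lay in this TAD, including 14 of 14 α genes, 22 of 22 β genes and 18 of 21 γ genes. The other 3 were *Pcdhgc3*, *Pcdhgc4* and *Pcdhgc5*, which lay outside any TAD in both cultures. No border separated α from β or β from γ in either list, and the one border within the locus fell inside the γ cluster at position 37800000 in both. No TAD starts at that position, so the locus held 0 borders when only positions where 2 TADs meet were counted.

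Set beside the genome, starts lay in a TAD for 76.7% of all protein-coding genes in 2D and for 83.5% in 3D, against 54 of 57 members (94.7%) in each. A TAD whose ends lay within 40 kb in the lists held 49.7% of all gene starts and 54 of the members. A TAD with identical ends held 35.1% of all gene starts and again 54 of the members. Outside TADs in both cultures were 12.6% of all gene starts and 3 members (5.26%). Because the 54 members share 1 TAD, their agreement between cultures amounts to a single domain rather than to 54 separate observations.

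**Figure D1:**
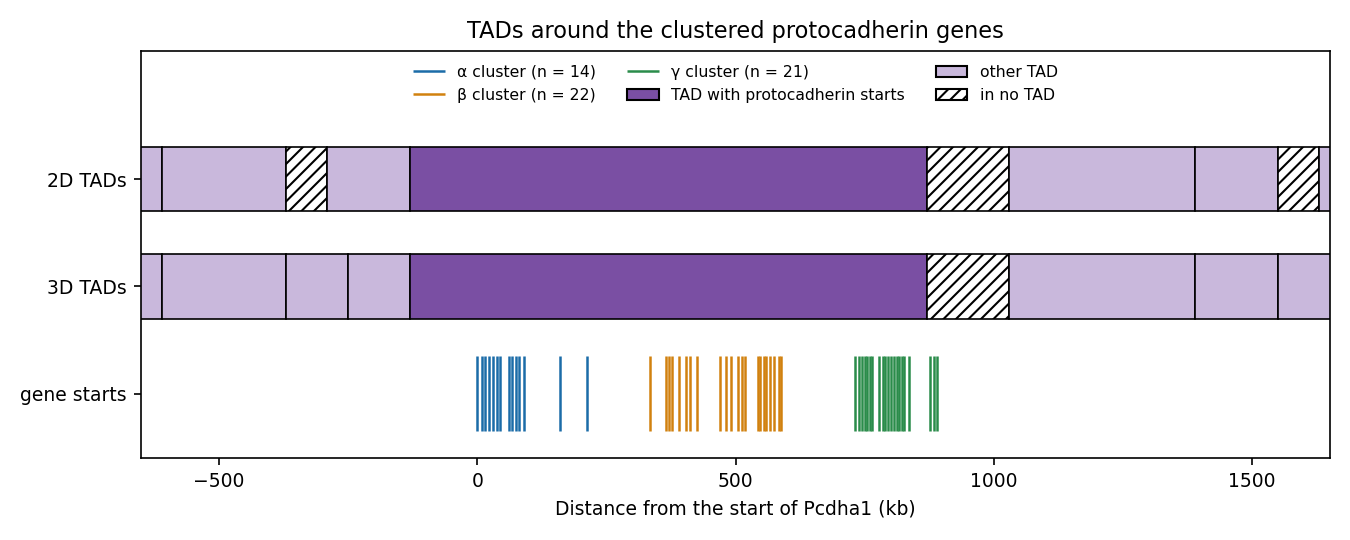
TADs of the 2D list (upper row) and the 3D list (middle row) and starts of the 57 genes (lower row, coloured by cluster) against the distance from the start of Pcdha1 in kb. One TAD of 1000 kb with identical ends holds 54 starts in both rows, and the last 3 γ starts lie over the hatched interval that belongs to no TAD.

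The TAD ranked higher by its number of genes than by its length. It contained 59 protein-coding gene starts, while the median TAD contained 3 in each list. More starts were found in only 7 TADs in 2D and 8 in 3D. On chromosome 18 it held the most of 148 TADs in 2D and of 147 in 3D, and the next TAD there held 15 in each. By length, 86.0% of the TADs in 2D and 85.8% in 3D were shorter, and 23 TADs of chromosome 18 were longer in each list. Among TADs of at least 1 Mb, 251 of 625 in 2D (40.2%) and 251 of 618 in 3D (40.6%) had identical ends in the other list, against 46.3% of all TADs in 2D and 47.4% in 3D.

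All 57 members were annotated on the plus strand. Of the 59 starts in the TAD, 57 were on the plus strand, which is 96.6%. Among TADs with at least 20 starts, the median share of starts on the commoner strand was 58.3% over 55 TADs in 2D and 59.3% over 61 in 3D. A higher share than that of the protocadherin TAD was found in 0 of these in 2D and in 1 in 3D. The 2 starts on the minus strand belong to *Slc25a2*, a mitochondrial ornithine carrier, and *Taf7*, a subunit of the general transcription factor TFIID. Both lie between the β and γ clusters. Also in the TAD are the starts of the gene models *Gm42416*, *Gm37013* and *Gm37388*, which are annotated as protein-coding. Their bodies run from the α cluster into the γ cluster over 887, 863 and 857 kb. They extend past the end of the TAD, and each body held 1 border in 2D and 1 in 3D.

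The α cluster opens the locus. Its 14 genes extend over 257 kb from *Pcdha1* at 36930184 to 37187661, and their starts are spaced by a median of 7.32 kb. Every α gene runs to the end of the cluster, with bodies from 44.2 kb for *Pcdhac2* to 257 kb for *Pcdha1*. The annotation gives 3 coding exons, of 59, 89 and 308 bases, that are shared by 14 of 14 α genes. These constant exons start between 37156155 and 37184946, and the last of them ends 615 kb before the end of the TAD. Accordingly the α variable exons and their constant exons lay in the same TAD in 2D and in 3D, and the bodies of 0 of 14 α genes held a border. The start of the TAD, at position 36800000 in both lists, lay 130.2 kb before *Pcdha1*, which is more than 3 bins. Between them no protein-coding gene starts, and the nearest start on the other side is that of *Zmat2*, 6.12 kb before the border.

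The β cluster follows after 77.3 kb. Its 22 genes extend over 260 kb, from *Pcdhb1* at 37264938 to the end of *Pcdhb22* at 37524479, with starts spaced by a median of 7.78 kb. These genes are short, from 2.59 to 8.70 kb, and 4 of the 22 have a transcript of more than 1 exon in the annotation. They occupied the middle of the TAD. The start farthest from any border was *Pcdhb3*, 499 kb away in 2D and in 3D, and the nearest of the β starts was *Pcdhb22* at 282 kb. Of all 21755 protein-coding genes, 1741 in 2D and 1850 in 3D lay at least as far from a border as *Pcdhb3*. The bodies of 0 of 22 β genes held a border in either list.

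The γ cluster starts 137 kb after the last β gene and spans 180.1 kb, from *Pcdhga1* at 37661793 to 37841873. Its starts are the most closely packed, with a median spacing of 5.35 kb. The end of the TAD at 37800000 divided this cluster in the same way in 2D and in 3D. The last start before it was *Pcdhga12*, 34.4 kb away, and the first start after it was *Pcdhgc3*, 6.36 kb away. Thus 18 of 18 γA and γB genes began inside the TAD and 3 of 3 γC genes began outside it. The 2 C-type genes of the α cluster, *Pcdhac1* at 37090013 and *Pcdhac2* at 37143503, began inside it.

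The same border lay within the body of every γA and γB gene. The γ annotation gives 3 coding exons shared by 21 of 21 genes, of 59, 89 and 224 bases, which start 25.02, 33.3 and 39.9 kb after the end of the TAD. For 18 γ genes, then, the variable exon lay in the TAD and the constant exons beyond it, and in 0 of the 18 did the border fall in an exon. All 3 constant exons start within 40 kb of the border, which is known only to the nearest bin. A shift of 1 bin could therefore change both their side of the border and whether it falls in an exon. In all, 18 of 57 members (31.6%) held a border in their body in 2D and 18 in 3D, all of them γA or γB genes. Over all protein-coding genes the share was 14.9% in 2D and 13.8% in 3D. Long genes hold borders more often. The shortest of the 18 is *Pcdhga12* at 76.3 kb, and among the 3335 genes at least that long the share was 35% in 2D and 31.8% in 3D. The 31.6% of members is not comparable with these, since it includes the 22 short β genes. A share among members of at least that length was not computed. By cluster, 18 of 21 γ, 0 of 14 α and 0 of 22 β genes held a border in each culture. The 18 genes end together and contain the same border, so they too describe 1 border.

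**Figure D2:**
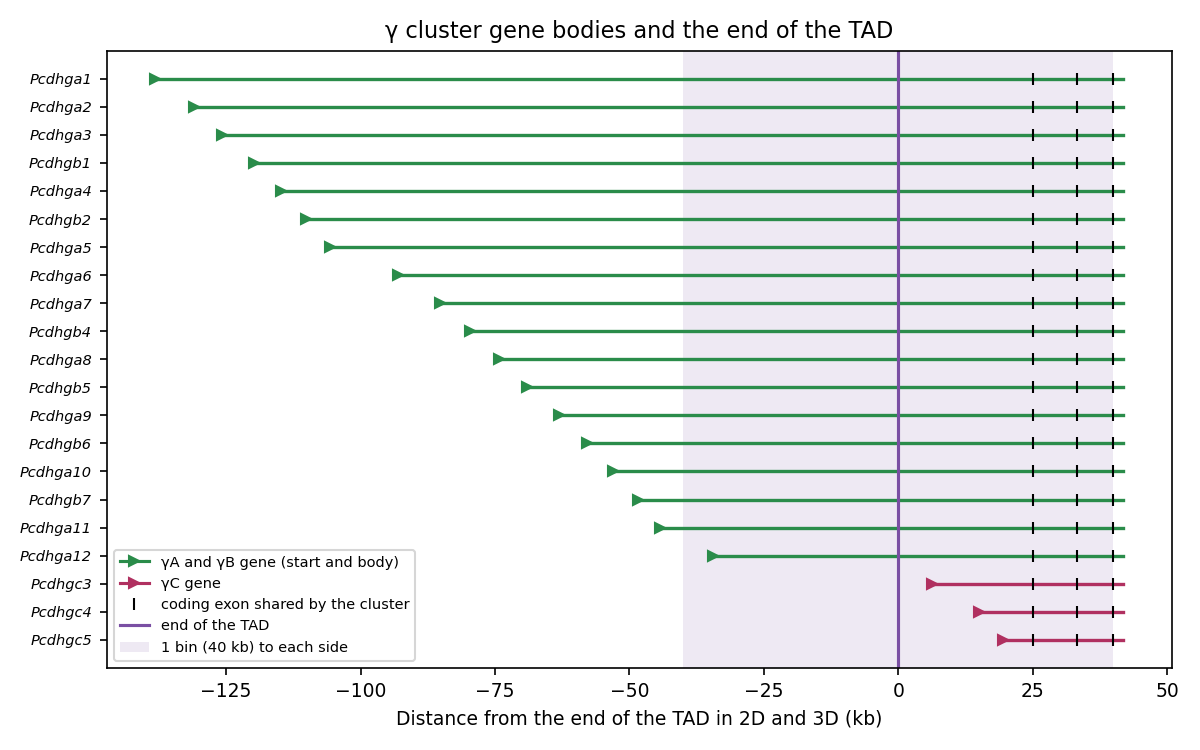
Bodies of the 21 γ genes, one row per gene in order of start, against the distance from the end of the TAD in kb, with black ticks for the 3 shared coding exons and a shaded band of 1 bin to each side. The 18 γA and γB bodies cross the end of the TAD, and the 3 γC genes and all shared exons lie after it, within the band or at its edge.

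The division of the γ cluster rests on the position of 1 border, which is known to the nearest bin. In an alternative chosen after the data were seen, the end of the TAD was moved by 40 kb in both lists. Moved towards the γ starts, the TAD held 53 members, and *Pcdhga12* was left outside with the γC genes. Moved away from them, it held 57 members, and the border lay in the bodies of 21 of 21 γ genes. A shift of 1 bin therefore decides where the γC genes fall, whereas moving the start of the TAD by 1 bin towards *Pcdha1* left the number of members at 54.

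Beyond the TAD lay an interval of 160 kb, chr18:37800001-37960000, that belonged to no TAD in either list. It contained the 3 γC starts and those of *Diaph1*, a formin that nucleates actin filaments, *Hdac3*, a histone deacetylase, and *Rell2*, a relative of the TNF receptor RELT. The body of *Diaph1* lies within it over 91.9 kb on the opposite strand. Such intervals numbered 1569 in 2D and 1188 in 3D, with a median of 80 kb in each list, and 21.5% and 17.8% of them were longer than 160 kb. The next TAD extended over chr18:37960001-38320000 in both lists and held 6 starts. Among these were *Pcdh1* and *Pcdh12*, protocadherins outside the clusters, which start 108 and 35.6 kb from the nearest border in 2D and in 3D.

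From the start of the protocadherin TAD, 5 consecutive borders up to position 38480000 coincided in the lists, giving a stretch of 1680 kb in which TADs and unassigned intervals were identical. Genome-wide there were 867 such identical stretches with a median of 640 kb, and 212 of them (24.5%) were at least as long. On chromosome 18 it was one of 11 of that length among 32. In the surroundings of the locus, the cultures differed outside this stretch. On the near side of *Pcdha1*, the 2D list had an unassigned interval of 80 kb followed by a TAD of 160 kb, while the 3D list had 2 abutting TADs of 120 kb. The borders that differed there, at 36640000 in 2D and 36680000 in 3D, lay 290.2 and 250.2 kb before *Pcdha1* and 1 bin apart. *Cd14*, a receptor for lipopolysaccharide, and *Hars* and *Hars2*, which encode histidyl-tRNA synthetases, lay in the TAD that abuts the protocadherin TAD in both cultures. On the far side, the 2D list had a border at 38560000, 718 kb after the last member, and the nearest border in 3D lay 80 kb away.

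Distances to the nearest border were the same in 2D and 3D for every member, since both lists give the same borders around them. They ranged from 130.2 to 344 kb for α genes, with a median of 183 kb, and from 282 to 499 kb for β genes, with a median of 371 kb. For γ genes they ranged from 6.36 kb for *Pcdhgc3* to 138 kb for *Pcdhga1*, with a median of 74.3 kb. The ranges of the α and β genes overlapped, and so did those of the α and γ genes, while each β start lay farther from a border than any γ start. Over all members the median was 192 kb, against 53.6 kb for all protein-coding genes in 2D and 58.3 kb in 3D. When a border had to be shared by 2 abutting TADs, it was 573 kb in each culture, against 199 kb for all genes in 2D and 153 kb in 3D. Of the 57 members, 50 lay beyond the median of all genes in 2D and 49 in 3D. The 4 members within 40 kb of a border were *Pcdhga12* and the 3 γC genes. For every member the nearest border was the start or the end of the protocadherin TAD, so the 57 distances are not separate observations.

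**Figure D3:**
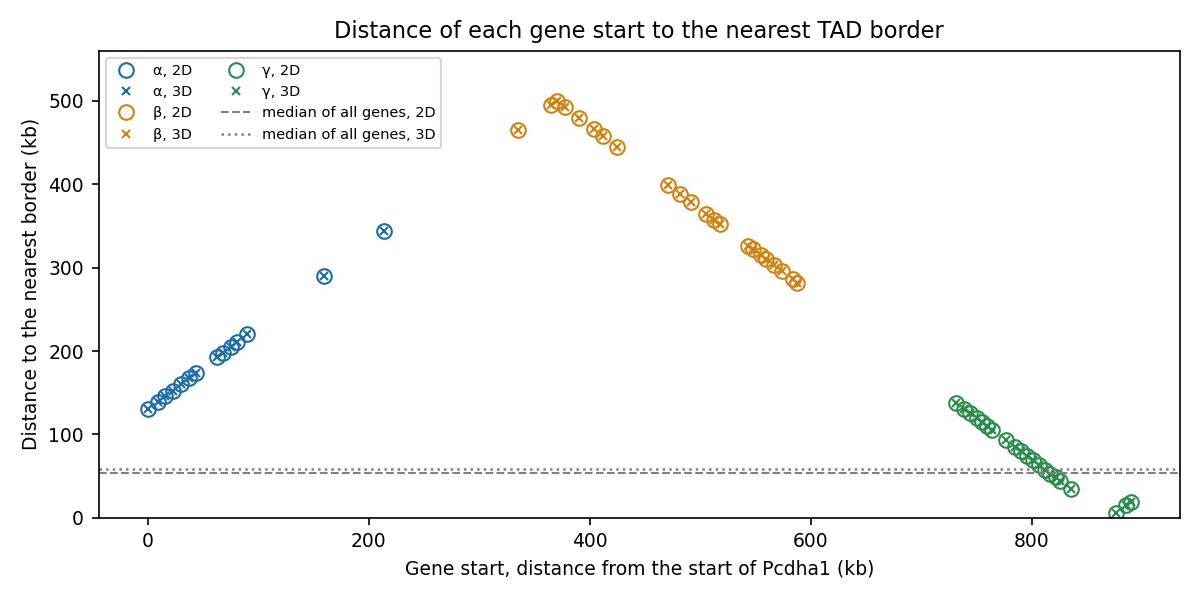
Distance of each of the 57 gene starts to the nearest TAD border in kb, against its distance from the start of Pcdha1 in kb, with circles for 2D, crosses for 3D and horizontal lines for the medians of all protein-coding genes (53.6 kb in 2D, 58.3 kb in 3D). Circles and crosses coincide, distances peak at 499 kb in the β cluster, and the γ genes approach the border.

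The TAD spans 25 bins of 40 kb, and 15 of them contained a member start, with up to 5 α, 6 β or 8 γ starts in a bin. CpG dinucleotides, which are sparse in most of the mouse genome and frequent at promoters with CpG islands, followed the starts. In GRCm38, bins of the TAD with a member start held a median of 517 CpG (range 237 to 1130) and those without held a median of 298.5 (227 to 435). The median of the 2180 bins of chromosome 18 without unknown bases was 304. The bin with 8 γ starts, chr18:37720001-37760000, held 1130 CpG, and 0 bins of the chromosome held more. The bin with 5 α starts, chr18:36960001-37000000, held 992, and 1 bin held more. The γ bins of the TAD held a median of 640.5 CpG, the α bins 460.5 and the β bins 425. The first bin after the end of the TAD, with the γC starts, held 692.

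Repeats ran in the other direction. They made up a median of 29.2% of the bases in bins with a member start and of 61.6% in those without, and 30.5% over the chromosome. The highest value in the TAD, 88.4%, came from the bin between *Pcdhb8* and *Pcdhb9*, which holds no member start. In the 4 unassigned bins after the TAD, repeats took between 20.3 and 23.7%. MboI sites, at which the Hi-C libraries were cut, numbered a median of 115 per bin in the TAD and 103 in the 4 bins after it, against 97 over the chromosome. Reads from stretches that match exactly cannot be placed uniquely. Windows of 30 bases, the first length at which the authors mapped reads, recurred elsewhere in the TAD or the interval after it for a median of 8.42% of the positions per bin of the TAD, and for at most 33.8%. At 150 bases, the full read length, the median was 0.207% and the highest value 7.63%. Copies elsewhere in the genome were not counted, so these shares are lower bounds on the sequence that recurs and do not measure how much could be mapped. Both maxima came from chr18:37560001-37600000, a bin with 0 member starts and 76.9% repeats. At 30 bases, the median was 7.41% in bins of the TAD with a member start and 17.1% in those without. In the 4 bins after the TAD, the values at 30 bases were at most 1.30%. From the last bin of the TAD to the first bin after it, repeats went from 32.2 to 20.3% and recurring windows of 30 bases from 5.06 to 0.87%. Their part in the position of the border was not tested.

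**Figure D4:**
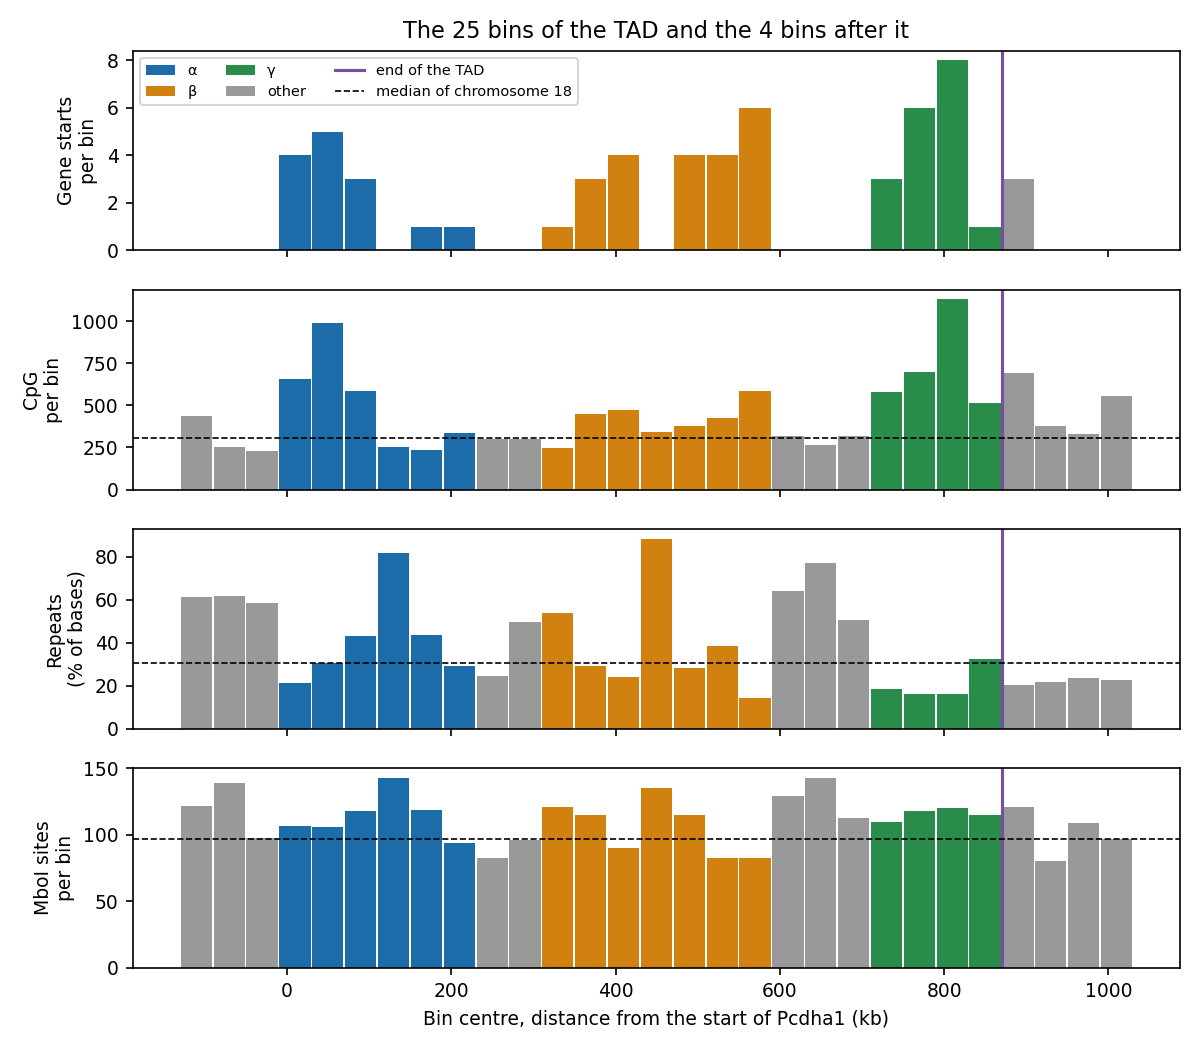
Gene starts, CpG dinucleotides, share of repeat bases and MboI sites in each 40 kb bin of the TAD and of the 4 bins after it, against the distance of the bin centre from the start of Pcdha1 in kb, coloured by cluster, with dashed lines for the medians over chromosome 18. CpG counts peak at 992 in the α cluster and at 1130 in the γ cluster, and the highest repeat content, 88.4%, lies in a bin of the β cluster without a member start.

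A single TAD over a tandem array was also present elsewhere in these lists. The gene sets compared were keratin genes, which encode intermediate filaments of epithelia, olfactory receptor genes, and the Hox clusters, which encode homeodomain factors of body patterning. One TAD held 27 of 27 keratin genes on chromosome 11 in each culture, and all 9 *Hoxd* genes lay in 1 TAD in both lists. The 294 olfactory receptor genes on chromosome 2 are not 1 array, since they spread over 75786 kb with 136 borders in 2D and 127 in 3D between the first and the last, and 1 TAD held 222 of them in each culture. The ends of such TADs were kept to different degrees, beside 49.7% of all protein-coding genes in a TAD with ends within 40 kb. TADs with ends within 40 kb in the lists held 54 of 57 clustered protocadherins, 9 of 9 *Hoxd*, 10 of 10 *Hoxb* and 10 of 11 *Hoxa* genes, and 24 of 26 keratin genes on chromosome 15. They held 4 of 9 *Hoxc*, 67 of 294 olfactory receptor and 0 of 27 keratin genes on chromosome 11. A border lay inside the body of 18 of 57 protocadherins in each culture, all through the same border, and of 2 of 9 *Hoxc* genes in 2D and 0 in 3D. In 4 of the other 6 sets no gene body held a border in either culture, and in each keratin array 1 body held one in 2D and 0 in 3D. Over all protein-coding genes the shares were 14.9% in 2D and 13.8% in 3D. The sets differ in the number and length of their genes, and no test was made.

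**Figure D5:**
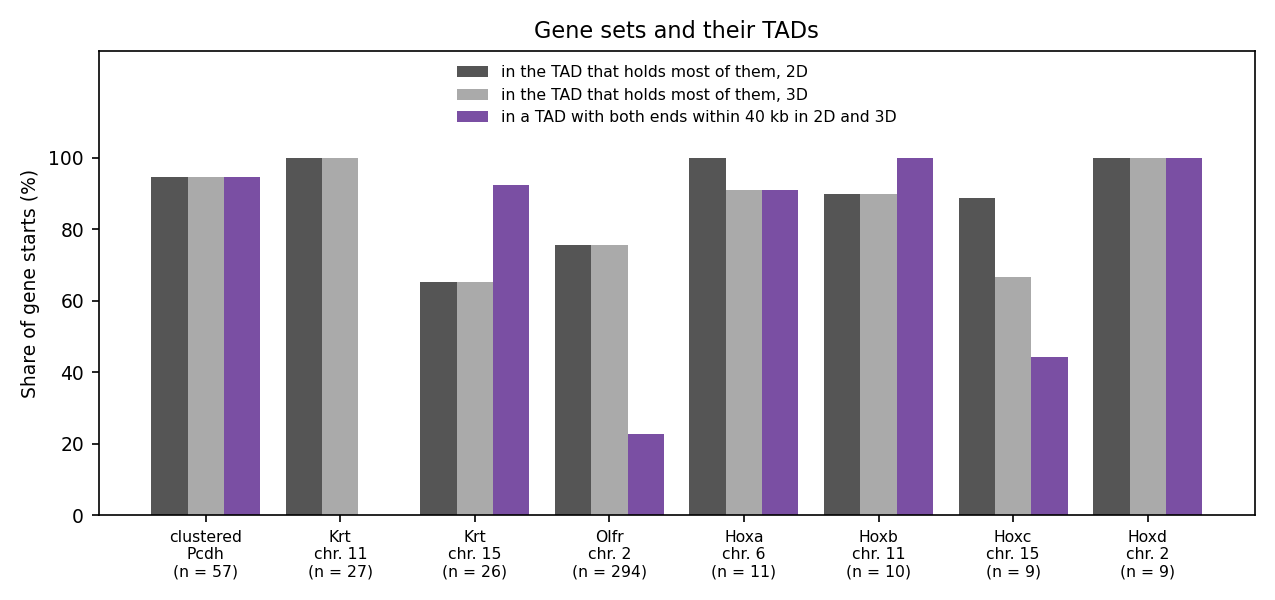
Share of gene starts, in percent, that lie in the TAD holding most of the set in 2D (dark grey) and in 3D (light grey), and in any TAD with both ends within 40 kb in the lists (purple), for the clustered protocadherins and 7 other gene sets. The protocadherins reach 94.7% in all 3 measures, and keratin genes on chromosome 11 reach 100% in the grey bars with no purple bar because the ends of their TAD differ.

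Protocadherins outside the clusters lie on several chromosomes, and of these *Pcdh1* and *Pcdh12* are neighbours. Of 12 such genes, 12 started in a TAD in both cultures (76.7% of all protein-coding genes in 2D and 83.5% in 3D). In 6 the ends of that TAD lay within 40 kb in the lists, a share near the 49.7% of all genes, and in 6 the ends were identical (35.1% of all genes). These were *Pcdh1*, *Pcdh7*, *Pcdh8*, *Pcdh12*, *Pcdh17* and *Pcdh20*. *Pcdh10* illustrates the others. Its TAD extended from 45320001 to 49000000 on chromosome 3 in 2D and from 45080001 to 50360000 in 3D, where it also took in *Pcdh18*, which lay in a separate TAD in 2D. The body of *Pcdh11x* on the X chromosome held a border in 3D only, and that of *Pcdh15* on chromosome 10 in 2D only. The median distance to a border was 140 kb in each culture, against 192 kb for the clustered genes, most of which share a single TAD.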

How the data were processed

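Reads were mapped by the authors with Bowtie2 (version 2.2.9, per the labels) to mm10. They kept confidently placed pairs, combined the 2 replicates per culture, normalized 40 kb contact matrices with ICE, set each chromosome to the same total in both cultures and called TADs with Armatus at a gamma of 0.8. The 2 deposited lists used here hold no counts or signals but the start and end of each TAD in base pairs, all of them multiples of 40 kb. Equal totals remove a difference in overall depth, but not one in how many reads lie behind a single bin.

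Starts and bodies of genes were taken from GENCODE M21 (GRCm38, the build named mm10), with RefSeq as an alternative. A TAD was the same when both ends lay within 40 kb. All coordinates are 1-based. CpG, repeats and MboI sites came from the GRCm38.p6 sequence. The members named were the first and last genes of each cluster, C-type genes, genes beside a border and those nearest to or farthest from one. Neighbours, 12 other protocadherins, 12 architectural and regulatory factors and the 7 other gene sets came from fixed lists. Bins or other genes were named after their values were seen. The members and lists were chosen with earlier results of these data known. Python (3.11.15), numpy (2.4.6), pandas (2.3.3) and matplotlib (3.10.9) were used, and 7 of 7 measures returned the known values on simulated lists. No sequence is printed here. Alternatives were the matching distance, overlap of 80% or 50%, placing genes by midpoint, other definitions of a border, TADs of at least 200 kb and a wider locus.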

Additional observations from a re-analysis of the deposited data

How the results depend on the processing

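Of 34 values under the alternatives named with the processing, 28 stayed within 1.5 times the reported count, or changed by less than 40 kb for a distance, and 6 moved. Counting only positions where 2 TADs meet as borders left 0 borders in the locus in 2D and 0 in 3D, because the end of the TAD adjoins an unassigned interval, and the median distance of members to a border became 573 kb in each culture. Placing genes by their midpoint gave a median of 281 kb in each. Of 28 values under alternatives chosen after the data were seen, 2 changed by exactly 40 kb: with the start of the TAD 1 bin closer to *Pcdha1*, the median was 152 kb in each culture. The number of members in the same TAD was 54 with matching at 0 or 80 kb, with overlap of 80% or 50% and with RefSeq positions. With genes placed by midpoint it was 53. No paired analysis was possible because each deposited list already merges both replicates of its culture, and for the same reason no replicate could be left out. The lists give no depth, so the certainty of single borders is unknown.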

Other observations

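Genes of factors known to act on the protocadherin clusters were placed in the same way, as a list of 12. In 2D 7 of them and in 3D 8 started in a TAD (76.7% and 83.5% of all protein-coding genes), and 6 started in a TAD whose ends lay within 40 kb in the lists, a share near the 49.7% of all genes. *Ctcf*, the insulator protein, lay in a TAD from 105560001 to 105680000 on chromosome 8 in 2D, whose end fell within the gene. In 3D its TAD extended from 105560001 to 106040000, and no border lay in its body. *Smc1a*, a subunit of cohesin on the X chromosome, started outside any TAD in 2D and in a TAD from 151920001 to 152160000 in 3D, and its body held 1 border in 2D and 0 in 3D. *Rad21*, another subunit, *Smchd1*, a repressor of the clusters, *Dnmt3b*, a DNA methyltransferase, and *Rest*, a repressor of neuronal genes, started outside TADs in both cultures, which are 4 of 12 against 12.6% of all genes. *Wapl*, which releases cohesin, *Stag1*, *Wiz*, *Nipbl*, the cohesin loader, and *Smc3* started in TADs with identical ends, which are 5 of 12 against 35.1% of all genes, and the TAD that holds the start of *Stag2* began 40 kb apart in the lists. The body of *Nipbl* held 2 borders in 2D and 1 in 3D, and that of *Smc3* held 1 in each culture. In all, the bodies of 7 of the 12 genes held a border in 2D and 5 in 3D, against 14.9% and 13.8% of all protein-coding genes. The 7 genes with a border in 2D run from 38.3 kb (*Dnmt3b*) to 154 kb (*Nipbl*), and the longest of the 12, *Stag1* with 362 kb, held none. No share among genes of like length was computed for these 12. The lists give positions only, and the levels of these factors were not measured in them.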
